A study of Bos taurus with 12 samples.

Results

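Fibronectin (FN1), SPARC, osteopontin (SPP1), myocilin (MYOC), tenascin C (TNC), thrombospondins 1 and 2 (THBS1, THBS2), periostin (POSTN) and dermatopontin (DPT) were examined in epithelium and intralobular stroma captured from the bovine mammary gland. These 9 genes of 9155 with a probe set of their own were chosen by name and by earlier values of this contrast, and all 16 of their probe sets with a single gene symbol were read, of 24016 probe sets other than controls. The choice was made with the stroma minus epithelium differences of several of them already known, and with SPP1 proposed as a possible epithelial exception. That difference is therefore given below as a description, with no p value, and supports nothing by itself. The calls of the fit over all probe sets are counted once, beside their background, and nothing is read from them. Of the 16 probe sets, 12 were among the 10000 brightest that were tested, and these cover 7 of the 9 genes. THBS2 and POSTN lay outside them.

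The tissue came from biopsies of 6 Holstein cows that were dry and 3 weeks from calving. The labels give lactation number 3 for cow 1, 2 for cow 2 and 1 for cows 3 to 6. Before freezing, the tissue of every cow was cultured as explants for 2 h with insulin, hydrocortisone and the thymidine analogue BrdU, so all captures share this culture. Epithelial cells and intralobular stroma were then cut from frozen sections by laser capture microdissection, and their RNA was amplified. Each capture was hybridized to a bovine Affymetrix GeneChip, which gave 6 epithelium and 6 stroma arrays. The stroma is a mixture of fibroblasts with other cells, although vessels and visible immune cells were avoided during capture.

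Fibronectin is a fibrillar glycoprotein that cells assemble into matrix and bind through integrins. Matricellular proteins are secreted into the same matrix but act mainly on how cells attach, spread and receive growth factors, rather than as structural fibers. In the mammary gland fibronectin and its integrin receptors take part in the hormone response of the epithelium, and osteopontin is also a protein of milk.

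Values are log2 intensities (RMA), in which a difference of 1 is a doubling. The array medians lay between 2.95 and 3.08, and where the mean of one tissue was lower than these, background sets the size of the fold, which is then only approximate. The captures carried the markers of their labels: the mean over 14 luminal epithelial markers lay between 6.95 and 7.73 in the epithelium and between 4.04 and 5.34 in the stroma, and that over 10 fibroblast markers between 3.30 and 5.70 and between 9.16 and 9.90. In the epithelium 3 of the 10 fibroblast markers, and in the stroma 3 of the 14 luminal markers, had a mean below the lowest array median. The separation was not complete for every list. The mean over 7 milk protein genes still read 4.13 to 10.98 in the stroma. That over 4 myoepithelial markers was higher in the stroma in 5 of 6 cows, by 0.84 ± 0.86 (SD, n = 6). Of these 4, MYLK alone passed the test (difference 2.10, limma adjusted p = 0.0243). The keratins KRT14, KRT17 and KRT5 had differences of 0.65, 0.33 and 0.30 (limma adjusted p = 0.620, 0.649 and 0.773), so no enrichment of myoepithelium is read from this mean. Control RNA added to every sample read 3.07 to 6.58 on the epithelium arrays and 4.15 to 10.99 on the stroma arrays, with the highest values in the stroma of cow 5 (10.99), cow 6 (10.39) and cow 4 (9.07). A lower value in a capture cannot separate fewer producing cells from less RNA per cell.

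FN1, SPARC and MYOC were bright in every stroma capture, and every stroma array lay above every epithelium array. FN1 is represented by 2 probe sets. The brighter one ran from 8.98 to 9.71 in the stroma (median 9.35) and from 2.23 to 6.02 in the epithelium (median 3.87). The stroma was higher in all 6 cows, and the mean log2 difference was 5.40 (standard error 0.52, n = 6 cows), or 42.2-fold. The second FN1 probe set was dimmer and lay outside the tested ones, with epithelial values of 1.27 to 2.00, all below the array medians, and stromal values of 3.50 to 9.57. It was also higher in the stroma of all 6 cows, by 3.83 (standard error 0.76), but the cows ranked differently. Cow 5 had the lowest stromal value of the brighter probe set and the highest of the dimmer one.

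SPARC, a collagen-binding glycoprotein that regulates matrix assembly, ran from 10.3 to 10.8 in the stroma (median 10.7) and from 4.34 to 7.13 in the epithelium (median 5.12). The log2 difference was 5.28 (standard error 0.45), or 38.9-fold, with the stroma higher in all 6 cows. MYOC encodes a secreted glycoprotein best known from the drainage tissue of the eye. It ran from 9.14 to 10.05 in the stroma and from 1.72 to 2.71 in the epithelium, below the array medians on all 6 epithelium arrays. Its log2 difference of 7.48 (standard error 0.36) was the largest among the 16 probe sets, and the lowest stroma array lay 6.43 above the highest epithelium array.

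**Figure D1:**
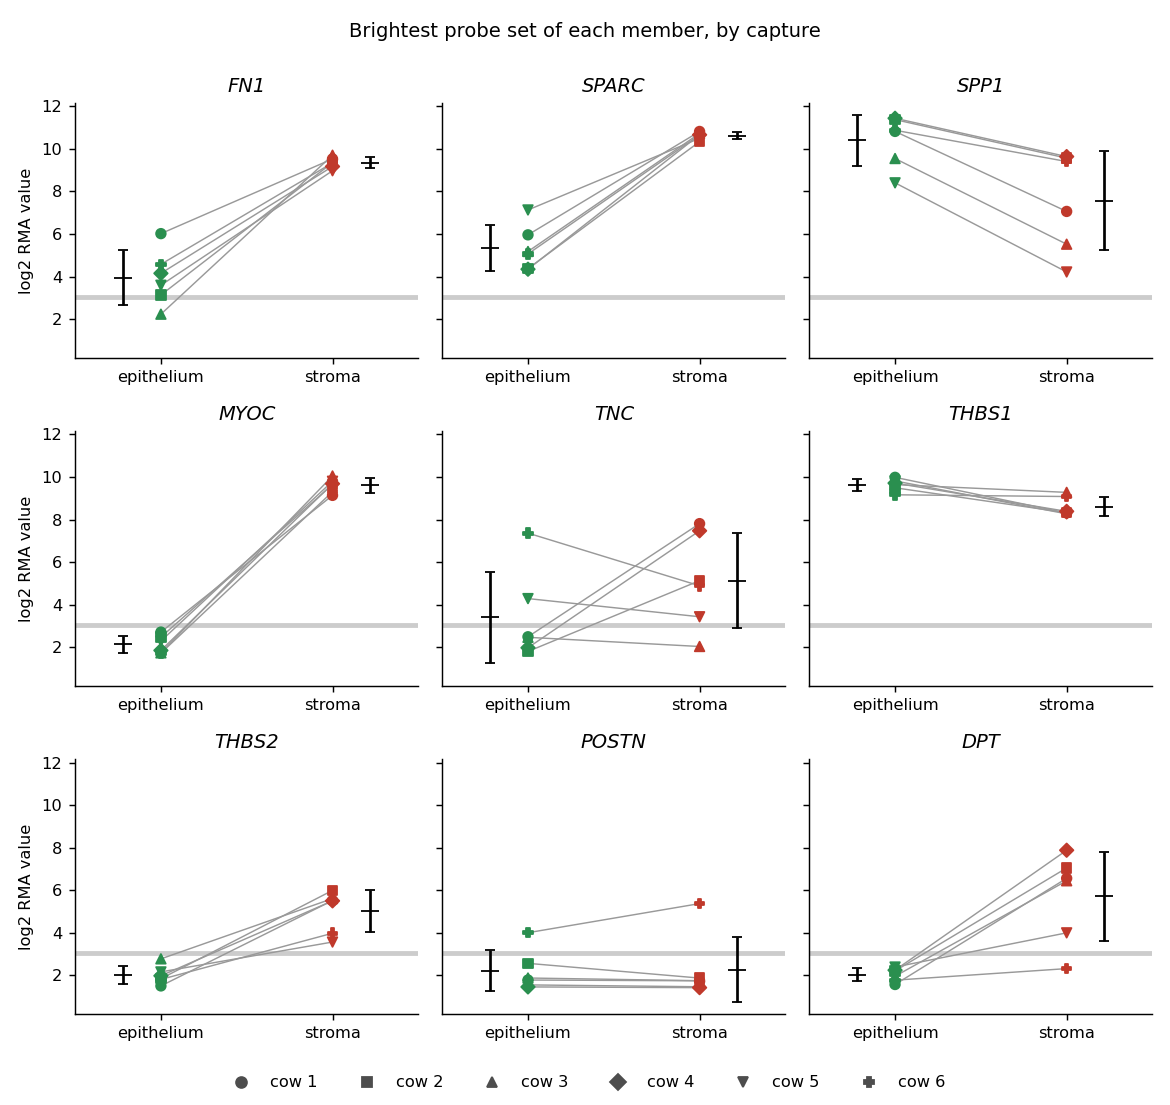
Log2 RMA value of the brightest probe set of each of the 9 genes on the 12 arrays. Points are captures (green, epithelium; red, stroma), lines join the captures of a cow, black bars give mean and SD over 6 cows, and the grey band spans the array medians of 2.95 to 3.08. FN1, SPARC and MYOC form a tight stromal group, SPP1 lies lower in stroma in each cow, and DPT and TNC spread widely in stroma.

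The stromal levels of the brighter FN1 probe set, SPARC and MYOC varied little among cows, unlike the dimmer FN1 probe set, whose stromal SD was 2.29. The SD over the 6 stroma arrays was 0.26 for the brighter FN1 probe set, 0.17 for SPARC and 0.33 for MYOC, against a median of 1.02 over the tested probe sets. Only 2.07%, 0.43% and 4.21% of the tested probe sets had a smaller stromal SD, respectively. Brightness goes with a small SD, and among the 441 tested probe sets with a stromal mean of at least 9 the shares were 18.4%, 5.90% and 27.7%. The epithelial SD was 1.30 for FN1 and 1.06 for SPARC, above the median of 0.79, and 0.42 for MYOC. The spread of the FN1 and SPARC differences thus came largely from the epithelium captures. Cow 5 had the highest epithelial SPARC (7.13) and the highest mean of the fibroblast markers in epithelium (5.70), whereas the highest epithelial FN1 was that of cow 1 (6.02), where the fibroblast mean was 4.21. The part of these markers in the epithelial values was not tested.

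THBS2 and DPT were lower in the epithelium in every cow, although in cow 6 DPT was below the array medians in both tissues. Their stromal SD was 1.00 and 2.11, against the median of 1.02 over the tested probe sets, so DPT varied more among cows than most and THBS2 did not. THBS2, a thrombospondin that binds matrix proteases and slows vessel growth, ran from 3.56 to 5.98 in the stroma (median 5.50) and from 1.49 to 2.76 in the epithelium. All stroma arrays exceeded all epithelium arrays, and the log2 difference was 3.02 (standard error 0.40). DPT, a small protein that binds decorin and collagen fibrils, had stromal values of 6.55, 7.04, 6.44, 7.87, 3.99 and 2.31 in cows 1 to 6. Its epithelial values were 1.56 to 2.38, all below the array medians. The stroma was higher in all 6 cows, by 3.69 (standard error 0.71), yet the stroma of cow 6 lay just below the highest epithelium array. As that stromal value was also below the array medians, no direction is read from cow 6.

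Cows 5 and 6 had the lowest stromal values of both THBS2 and DPT. The same order, with both cows below the other 4, occurred in 12% of all tested probe sets and in 10.4% of the 454 called higher in stroma. Without these cows the log2 difference was 4.99 for DPT and 3.63 for THBS2. Added control RNA was highest in the same 2 stroma captures, but the capture with the third highest control value, that of cow 4, had the highest DPT. The stroma arrays of cows 5 and 6 also had the lowest mean correlation with the other stroma arrays (0.58 and 0.62, against 0.65 to 0.71). Among the stroma arrays the GAPDH 3′ minus 5′ difference was the highest in cow 6 (4.75) and the lowest in cow 5 (2.31). The paper judged RNA integrity by the GAPDH 3′ to 5′ ratio, which it reported as low, and called the starting RNA suitable in both tissues. The values here are another measure, a difference of log2 RMA values, so that verdict does not cover them. They were above a doubling on every stroma array, and ran from 0.93 to 3.59 on the epithelium arrays. Why they were larger than the paper's ratio was not tested. In the stroma of cows 5 and 6, the brighter FN1 probe set read 8.98 and 9.35, SPARC 10.5 and 10.7, and MYOC 9.80 and 9.31. These probe sets thus showed no such drop, although cow 5 was the lowest for FN1. On the dimmer FN1 probe set cow 5 was instead the highest (9.57), and cow 6 read 4.64. The part of the added control RNA and of the array quality in these values was not tested.

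**Figure D2:**
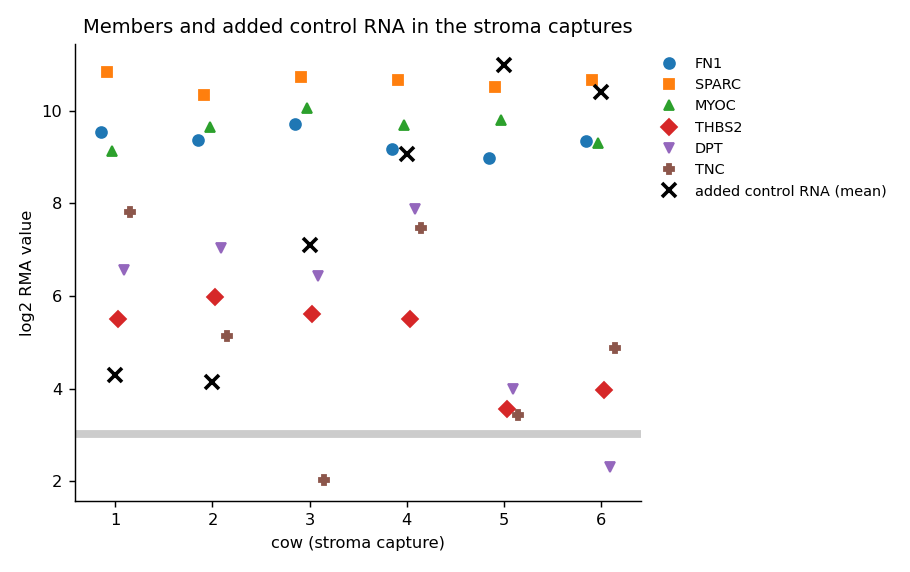
Log2 RMA value of 6 of the genes (brightest probe set, colored points) and the mean of the added control RNA (black crosses) in the stroma capture of each cow, with the array medians as a grey band. Cows 5 and 6 have the highest control RNA and the lowest THBS2 and DPT, while FN1, SPARC and MYOC hardly differ among cows.

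TNC did not separate the tissues. TNC is a large glycoprotein of embryonic and remodeling matrix that can be made by both fibroblasts and myoepithelium. Its brighter probe set read 7.81, 5.13, 2.03, 7.47, 3.43 and 4.88 in the stroma of cows 1 to 6, and 2.48, 1.79, 2.46, 1.97, 4.28 and 7.36 in the epithelium. The stroma was higher in cows 1, 2 and 4 and the epithelium in cows 3, 5 and 6. The mean log2 difference of 1.73 had a standard error of 1.10, and its size rested on single cows. It was 1.01 without cow 1, 0.98 without cow 4, and 3.43 without cows 5 and 6. The dimmer probe set ranged only from 1.99 to 3.96 over all arrays, close to their medians, with a difference of 0.46 (standard error 0.22). On it the stroma was higher in 5 of 6 cows.

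POSTN, a matricellular protein related to TGFBI that is typical of remodeling connective tissue, was above the array median in 1 cow. Cow 6 read 3.99 in the epithelium and 5.36 in the stroma. The other 5 cows read 1.44 to 2.55 and 1.41 to 1.86, below the medians in both tissues, so no direction is read from them. The mean difference of 0.07 (standard error 0.29) turned to -0.20 without cow 6. In 5 of the 6 cows the stromal value of POSTN was thus below the array median, in captures where FN1 and SPARC were bright.

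SPP1 ran the other way. SPP1 binds integrins and CD44, is made by secretory epithelium and by macrophages, and calcifying tissues use it as well. The epithelium read 10.8, 11.4, 9.55, 11.4, 8.41 and 10.9 in cows 1 to 6, and the stroma 7.06, 9.57, 5.52, 9.64, 4.22 and 9.41. The epithelium was higher in all 6 cows, with a stroma minus epithelium difference of -2.85 (standard error 0.50), or 7.19-fold. The ranges of the tissues overlapped, since the stroma of cows 2, 4 and 6 exceeded the lowest epithelium array. All 6 stroma arrays were above their medians, so SPP1 was present in both captures. Its stromal SD of 2.34 was larger than that of 97.8% of the tested probe sets.

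The cows kept the same order for SPP1 in both captures, with cow 5 lowest, followed by cows 3, 1, 6, 2 and 4. Over the 6 cows, Pearson's r was 0.94 (exact permutation, two-sided p = 0.00139) and Spearman's rho was 1 (exact p = 0.00278, the smallest that 6 cows allow for rho). This relation does not use the difference between tissues, but it was noticed after the values were seen. Adjusted over the same relation in all 10000 tested probe sets, p was 0.712 and 0.751 (exact permutation), so it did not pass. With 6 cows no single probe set could pass this adjustment alone, however close its relation, so nothing is concluded from that. An identical order occurred in 23 of them (0.23%), and the median r was 0.10. Without cows 3 and 5, the farthest from the epithelial median, r was 0.69 over 4 cows, whose order still matched. Of the 9 genes, POSTN alone also kept the whole order, with r = 0.95 (exact p = 0.00139), on values that were below the medians in 5 cows. The r of the other 7 genes lay between -0.57 and 0.15, and 9 relations were computed.

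The order of the cows for SPP1 differed from that for the milk proteins. The mean over 7 milk protein genes, which include the caseins, lactoferrin and the major whey proteins, was also lower in the stroma of all 6 cows, by 1.71 on average. In the epithelium it was lowest in cow 6 (5.83) and highest in cow 2 (12.2). Cow 6 had an epithelial SPP1 of 10.9, and cow 5, with the lowest SPP1, had a milk protein mean of 10.1. A close match between captures was not particular to SPP1, as the milk protein mean had r = 0.98 (exact permutation p = 0.00278, 0.0306 adjusted over 11 marker lists) and rho = 0.94 (exact p = 0.0167, adjusted 0.0917), and r = 0.91 without cows 2 and 6. The mean over 6 markers of monocytes and macrophages was higher in the stroma of all 6 cows by 1.11 ± 0.63 (SD, n = 6). Of these 6, MSR1 alone passed the test (difference 3.19, limma adjusted p = 0.0481), and CD14 and TYROBP had differences of -0.02 and 0.33 (adjusted p = 0.990 and 0.713). The 2 tested probe sets of MSR1 disagreed, with differences of 0.22 and 3.19, as did those of CD14, with -0.02 and 1.05. In the stroma the mean of the 6 markers was highest in cow 5 (6.45), where SPP1 was lowest. Luminal markers in the stroma were highest in cow 4 (5.34), where stromal SPP1 was highest, and lowest in cow 2 (4.04), where SPP1 was 9.57. The part of macrophages, and of epithelial RNA in the stroma captures, in these values was not tested.

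**Figure D3:**
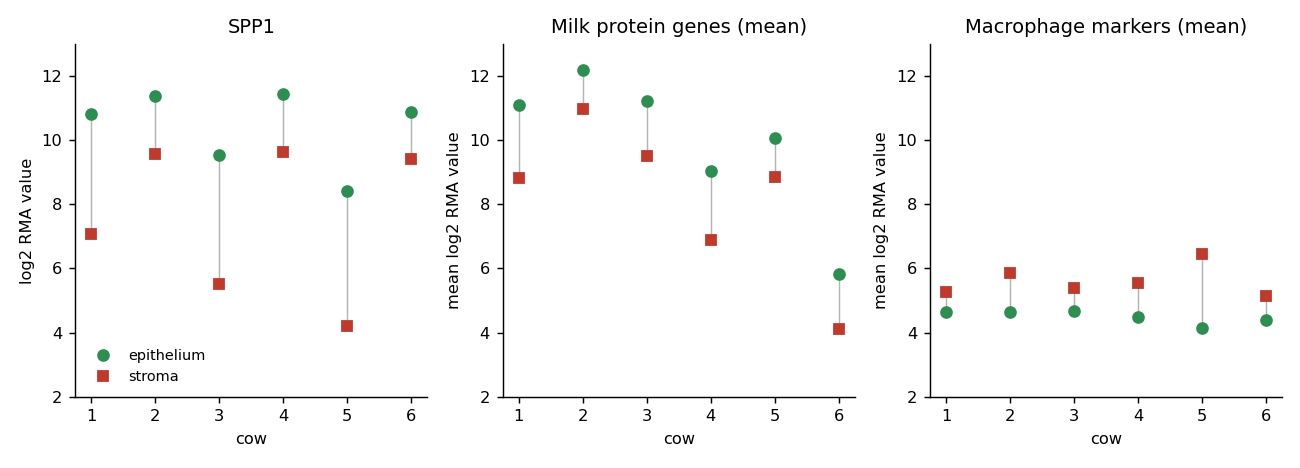
SPP1 (left), the mean of 7 milk protein genes (middle) and the mean of 6 monocyte and macrophage markers (right) in the epithelium (green circles) and stroma (red squares) of each cow, as log2 RMA values. SPP1 is lowest in cow 5 and milk proteins in cow 6, and the macrophage mean is higher in stroma in each cow.

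The 6 probe sets of THBS1 disagreed. THBS1 is a large glycoprotein of platelets and stroma that binds CD36, CD47 and integrins and activates TGF beta. The brightest probe set ran from 9.16 to 9.98 in the epithelium and from 8.27 to 9.28 in the stroma, and the epithelium was higher in all 6 cows by 1.03 (standard error 0.37). A dimmer probe set of the same sequence cluster, by its name, had a stroma minus epithelium difference of -2.36 (standard error 0.50), again with the epithelium higher in all 6 cows. The probe set that the annotation pairs with a RefSeq mRNA of THBS1, by contrast, had nearly equal means of 8.67 and 8.54, a difference of -0.12 (standard error 0.40) and a higher stroma in 3 of 6 cows. The remaining 3 had differences of 0.13, -0.66 and 0.10, with standard errors of 0.76, 0.65 and 0.37. Over the 12 arrays, the probe sets of the first cluster correlated with r = 0.62 and the 3 of the RefSeq cluster with 0.55 to 0.59. Pairs from different clusters correlated with -0.31 to 0.51. No direction is therefore given for THBS1, and which of the probe sets reads the THBS1 mRNA was not tested.

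**Figure D4:**
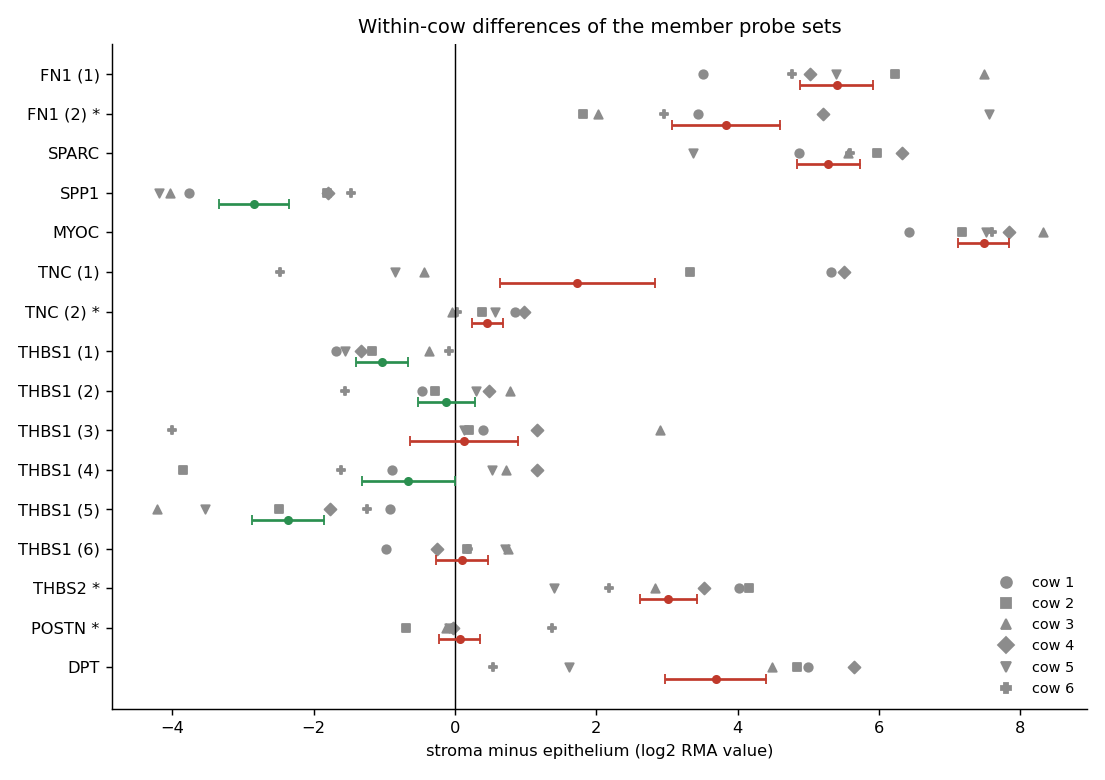
Stroma minus epithelium difference in log2 RMA value of the 16 probe sets. Grey symbols are the 6 cows, and the colored point and bar are the mean and standard error (red, stroma higher; green, epithelium higher). Probe sets of a gene are numbered from the brightest and an asterisk marks those outside the tested ones. The THBS1 probe sets scatter on both sides of 0, whereas those of FN1 lie to the right for each cow.

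Among the 12 tested probe sets, 4 passed limma's threshold of an adjusted p under 0.05 in stroma (FN1, SPARC, MYOC and DPT), against 4.54% of all 10000 tested. In epithelium 2 passed (SPP1 and the dimmer of the THBS1 cluster above), against 4.77%. Of the 12, 3 had stroma arrays entirely above the epithelium arrays, against 3.4%. As the genes were chosen with this contrast in view, nothing is read from these shares. The median difference was 0.11 over these 12 and -0.18 over all tested probe sets. It was 0.29 over all 16 probe sets, and 3.02 over the 9 genes by their brightest probe sets, where the middle gene, THBS2, lay outside the tested ones. When every array was centred on its own median over the tested probe sets, this moved the calls over all probe sets from 454 in stroma and 477 in epithelium to 515 and 360.

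Genes with the pattern most like that of a member were named by Pearson's r over the 12 arrays, which are 6 pairs and share the tissue difference, so r is only descriptive. FN1 was closest to S100A4 (r = 0.99), NID2 (0.98) and CCDC80 (0.98), and SPARC to FGL1 (0.99), CXCL12 (0.98) and LUM (0.98). MYOC was closest to CDH5 (0.99), an endothelial cadherin, FBLN1 (0.99) and FGL1 (0.98). The closest to THBS2 were C7 (0.96), ADGRF5 (0.95) and APOD (0.95), and to DPT PES1 (0.94), PDPN (0.93) and TNXB (0.93). For SPP1 they were KHDRBS1 (0.94), CHI3L1 (0.94) and S100A2 (0.93), and for the brightest THBS1 probe set ESRP1 (0.92), a splicing regulator of epithelial cells, RPS3 (0.91) and RETREG1 (0.89). Those of TNC (DHX16, TCAF1 and NHERF2, 0.78 to 0.85) and POSTN (GADD45GIP1, KIF20A and PRELP, 0.88 to 0.91) were less close, and POSTN was above the array medians in cow 6 alone.

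Receptors of these proteins passed the test at a share near that of all tested genes. Of 15 such genes on the array 13 were tested. Of these 1 passed in stroma and 1 in epithelium, against 4.49% and 4.62% of all 5212 tested genes, and the median difference was -0.74. ITGA5, the alpha subunit of the classical fibronectin receptor, was higher in stroma by 3.67 on the log2 scale (standard error 0.42, adjusted p = 0.00101, in 6 of 6 cows), with a mean of 6.48 against 2.81 in epithelium, which is below the array medians. ITGB1, its partner, had a difference of 1.10 (standard error 0.37, adjusted p = 0.104). ITGB6, part of an epithelial integrin that binds fibronectin and tenascin C, had a 4.54-fold higher level in epithelium (standard error of the log2 difference 0.50, adjusted p = 0.0283, in 5 of 6 cows). Leaving out any of cows 1 to 5 ended its call, with an adjusted p of at most 0.0863. The stromal mean of ITGB6 (3.27) and the epithelial mean of ITGA5 were under the cut of 3.57 for testing. Each was thus tested only through 1 tissue, and nothing is read from these counts. The osteopontin receptor CD44 had a difference of -0.74 (adjusted p = 0.410), and the thrombospondin receptors CD36 and CD47 had -0.78 (adjusted p = 0.225) and -1.26 (adjusted p = 0.188). These p are from limma. The probe sets of ITGB3 and ITGB5 disagreed, with differences from -0.06 to 2.17 and from -0.40 to 2.10.

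Other matricellular proteins and relatives of the 9 genes were higher in stroma in 4 of 16 tested genes and in epithelium in 0 (28 on the array, median difference 1.47), against 4.49% and 4.62% of all tested genes. Genes were tested by their mean over both tissues, and the 4 had epithelial means under its cut of 3.57, by little for SMOC2. They were thus tested only through the stroma, and nothing is read from this count. MFAP5, a microfibril protein, was higher in stroma by 4.64 on the log2 scale (standard error 0.55, limma adjusted p = 0.00122) and FGL2, a fibrinogen-like protein, by 4.41 (adjusted p = 0.00195). Their epithelial means of 2.85 and 2.79 were below the array medians. TNXB, the tenascin of loose connective tissue, was higher by 3.59 on the log2 scale (adjusted p = 0.00432), from an epithelial mean of 1.90 below the array medians, in contrast to the spread of TNC. SMOC2, a relative of SPARC, was 4.20-fold higher (adjusted p = 0.0106, and 0.0686 without cows 5 and 6). SPARCL1, the closest relative of SPARC, had a difference of 2.29 (standard error 0.83, adjusted p = 0.131, and 0.0221 without cow 5). By the brightest probe set of each gene, the largest difference in the other direction was that of MFGE8, an integrin-binding protein of milk fat globules, at -0.51 (adjusted p = 0.481). The 3 probe sets of MGP disagreed, with differences from -2.76 to 1.80. The matricellular growth regulators CCN1 and CCN2 had differences of 0.28 and -0.03 (adjusted p = 0.783 and 0.990).

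**Figure D5:**
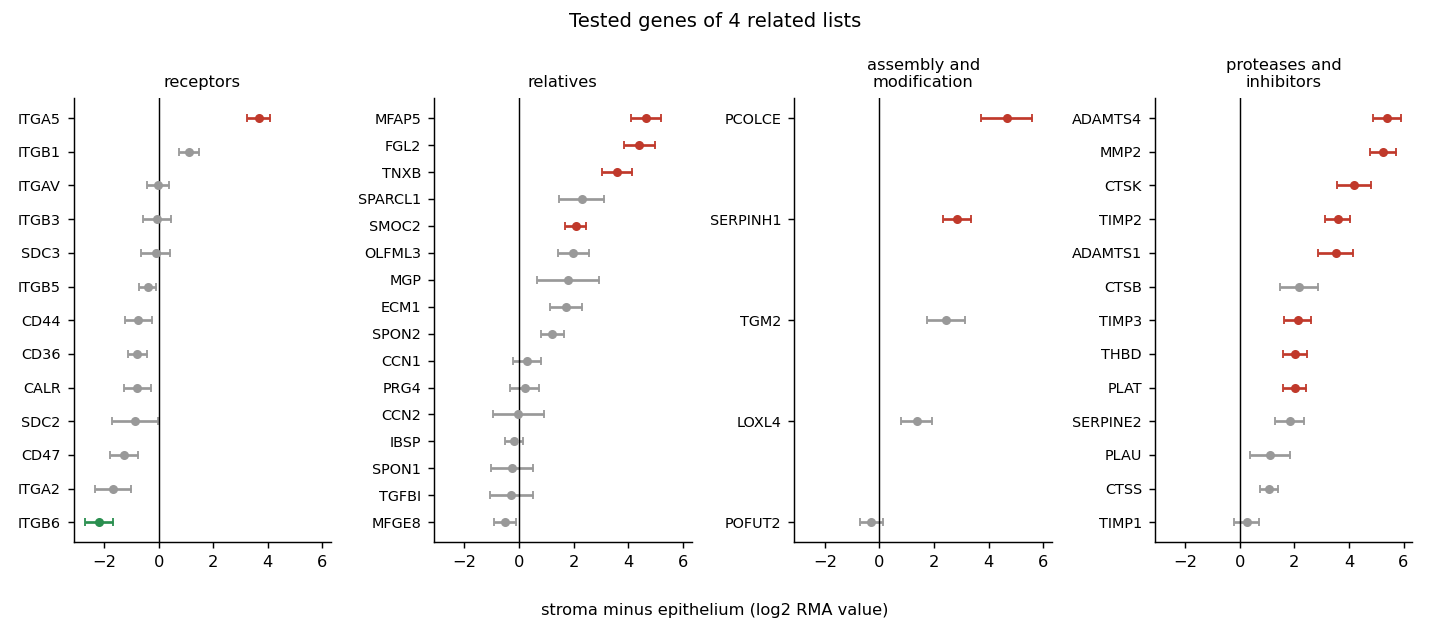
Stroma minus epithelium difference in log2 RMA value, with its standard error over 6 cows, of the tested genes of 4 lists. Red and green points passed limma's adjusted p under 0.05 in stroma and epithelium, and grey points did not pass. Most receptors lie near 0 or to its left, and most proteases and inhibitors lie to the right.

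Of 5 tested genes of matrix assembly and modification (8 on the array, median difference 2.44), 2 were higher in stroma and 0 in epithelium, against 4.49% and 4.62% of all tested genes. Both that passed are known for their action on collagens, and no member is a collagen. PCOLCE, which speeds the cutting of procollagen, was 25.2-fold higher (log2 standard error 0.95, limma adjusted p = 0.0170, but 0.0505 without cow 6 and 0.0547 without cows 5 and 6), and SERPINH1, a collagen chaperone, 7.17-fold (adjusted p = 0.0112). POFUT2, which adds fucose to thrombospondin repeats, had the lowest difference, at -0.30 (adjusted p = 0.711). TGM2, which cross-links fibronectin, had a difference of 2.44 (adjusted p = 0.0608, and 0.0152 to 0.163 over 12 alternatives).

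The list of proteases and inhibitors also held THBD, a cofactor of the protease thrombin. Of its 13 tested genes (19 on the array, median difference 2.12), 8 were higher in stroma, THBD among them, and 0 in epithelium, against 4.49% and 4.62% of all tested genes. ADAMTS4, a protease of proteoglycans, was 41.9-fold higher (log2 standard error 0.51, limma adjusted p = 0.000446), and MMP2, a gelatinase, 38.1-fold (adjusted p = 0.000345). CTSK, a collagen-cutting cathepsin, was 18.1-fold higher (adjusted p = 0.00436), and ADAMTS1, which cuts THBS1 and THBS2, 11.4-fold (adjusted p = 0.0107). The epithelial means of MMP2 and CTSK, 3.25 and 3.40, lay close to the array medians, so their folds are only approximate. Like that of THBD (3.35), they were under the cut of 3.57, so these genes were tested only through the stroma. Nothing is therefore read from the count of this list. TIMP2, an inhibitor of MMP2, was higher by 3.59 on the log2 scale (adjusted p = 0.00205). TIMP3 was 4.34-fold higher (adjusted p = 0.0316), and leaving out any cow but cow 5 ended its call, with an adjusted p of at most 0.101. THBD and PLAT were the other 2 that passed. The call of THBD ended without cow 1, 2 or 3, where p was at most 0.0719 after limma and adjustment, and that of PLAT without cow 1 or 4, where it was at most 0.0596. Without cows 5 and 6 both calls ended (limma adjusted p = 0.0645 and 0.0650). The urokinase gene PLAU, whose product acts on fibronectin through plasmin, had a difference of 1.12 (adjusted p = 0.394). Fibroblast markers were higher in the stroma in all 6 cows, by 5.19 ± 1.01 (SD, n = 6), as were endothelial markers by 3.50 ± 0.53. So were the means of only 2 adipocyte genes, by 2.52 ± 0.96, and of only 2 B and plasma cell genes, by 6.92 ± 1.12. Of the adipocyte genes, FABP4 passed (difference 4.02, limma adjusted p = 0.00203) and LPL did not (1.03, limma adjusted p = 0.440). The part of these cells in the differences of the 4 lists was not tested.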

How the data were processed

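The deposited values are log2 probe set intensities, for which the authors used RMA and quantile normalization on a larger set of arrays that included these 12. Gene symbols came from the platform annotation, and probe sets with several symbols stand for no gene. Of 24128 probe sets, 112 controls were left out, and 13292 of the rest had 1 symbol, of which 13263 matched the reference annotation by gene ID. In place of detection calls, not used here, the 10000 probe sets with the highest mean (at least 3.57) were tested; others were read from a fit of all 24016. The fit (R 4.3.3, limma 3.58.1, and data.table, version 1.17.8) had tissue and cow as terms, where the study fitted tissue alone. Captures were taken as those of one cow by their shared replicate number, which goes with a shared lactation number. Their deviations correlated with r = 0.03 to 0.20. The own capture had rank 1 among the cows except for cows 2 and 3, where it had rank 2. P values were adjusted by Benjamini-Hochberg over all tested probe sets, with a threshold of 0.05, and the fit was tested on simulated data. Each listed gene stands by its brightest tested probe set. From a list, genes past the threshold, at most the 6 largest per direction, and the largest in the other direction were named. Others named (ITGB1, ITGB3, ITGB5, CD36, CD44, CD47, CCN1, CCN2, SPARCL1, MGP, TGM2, THBD, PLAT and PLAU) were chosen after their values were seen. The members and lists were chosen with earlier results of these data known. The number of arrays limits the precision. No sequences were used here. The alternatives stand in the closing section.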

Additional observations from a re-analysis of the deposited data

Results flagged for a closer look

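In 48 groups of 6 values (each of the 16 probe sets in epithelium, in stroma and as a difference), 4 held a value that stood apart from the rest by Dixon's gap ratio (over 0.625), and chance alone flags about 1 in 20 groups. POSTN of cow 6 was 5.36 in stroma, where the next value was 1.86, and its difference of 1.37 was the highest, the next being -0.03. A THBS1 probe set of the RefSeq cluster (the third in brightness) read 4.68 in the stroma of cow 6, where the next was 8.18. The dimmest THBS1 probe set read 6.12 in the epithelium of cow 1, where the next was 4.85.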

How the results depend on the processing

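The member differences were computed under 13 alternatives. FN1, SPARC, SPP1, MYOC, TNC, THBS2 and DPT kept their direction in each, and 198 values over the 16 probe sets moved by less than the SD over cows without a change of sign. The TNC difference ran from 0.98 to 3.43. The 10 values that changed sign belonged to THBS1 and POSTN. Centred on the median, the RefSeq THBS1 probe set turned to 0.055, without cow 6 to 0.16 and without cows 5 and 6 to 0.13. With each cow left out in turn it ran from -0.30 to 0.16. The third THBS1 probe set in brightness turned to -0.42 without cow 3 and -0.076 without cow 4 (range -0.42 to 0.96 with single cows left out), and the dimmest to -0.034 without cow 3, -0.025 without cow 5 and -0.078 without cows 5 and 6 (range -0.034 to 0.31 with single cows left out). POSTN turned to -0.20 without cow 6 (range -0.20 to 0.22 with single cows left out) and -0.22 without cows 5 and 6, after which 6 of the 9 genes had a higher mean in stroma in place of 7.

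Without the replicate block, 481 probe sets passed in stroma and 463 in epithelium (454 and 477 with it), and no count of the lists moved by more than 1.5 times. Over the brightest 5000 probe sets the counts were 239 and 274, with 0 receptors in stroma, 0 in epithelium and 1 matricellular relative in stroma, as fewer probe sets were tested. Without a filter, 0 receptors were higher in epithelium and 1 assembly gene in stroma; with the intensity trend and robust prior, 2 receptors were higher in stroma. Without cows 5 and 6, left out for their stromal control RNA, 244 probe sets were higher in epithelium. With each cow left out in turn, the epithelial count ran from 267 to 406 (267 without cow 1, 282 without cow 2 and 281 without cow 4), the receptors in epithelium from 0 to 1 and the assembly genes in stroma from 1 to 3. The cause of these changes was not tested.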

Other observations

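After the mean of each tissue was taken from its arrays, the genes closest to FN1 over the 12 arrays were TFPI2 (r = 0.89), S100A4 (0.89) and TM4SF1 (0.89), and those closest to SPP1 were ADIPOR1 (0.92), LAMTOR4 (0.91) and KHDRBS1 (0.90). S100A4 thus stood among the 3 closest to FN1 with and without the tissue difference, and KHDRBS1 among those of SPP1. These r are descriptive. Over the 28 pairs of the 8 genes other than SPP1, in their brightest probe sets, the median r across the 6 stroma arrays was 0.08, with 17 pairs above 0, and across the 6 epithelium arrays -0.01, with 14 above 0.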
